A study of Mus musculus with 21 samples.

Results

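The sarcomere is the contractile unit of striated muscle, and 37 of its structural and associated genes are described here in brown adipose tissue and in a white thigh muscle of the mouse. The members were matched by gene symbol in the 2 deposited count tables, taking the gene model with the highest summed count, and all 37 of 37 were found, each as 1 model among the 28541 models of a table. By role, 11 belong to the thin filament, 9 to the thick filament and M-band, 13 to the Z-disc, and 4 are a costamere, intermediate filament or other muscle protein. The tissues were whole brown adipose tissue (BAT), a fat that burns lipid for heat, and white vastus lateralis (WV), the pale part of a fast-contracting thigh muscle. BAT gave 5 libraries of floxed littermates and 6 of BATI4KO mice, and WV gave 5 of each. Floxed mice carry a loxP-flanked gene without its deletion. In BATI4KO mice, as the study is known, a Ucp1-driven Cre removes Irf4, a transcription factor, from brown adipocytes that carry the same floxed alleles. The labels give neither the Cre, the age nor a treatment. They leave unsaid whether the libraries are 1 animal each, so a p-value covers library-to-library spread only, part of which may be technical. Of the BAT libraries, 3 floxed and 3 BATI4KO titles carry a short number (1, 2 or 3), and the others carry long tags. Libraries are named here by title, FX for floxed and KO for BATI4KO, and the tags of FX_5497, FX_5503, KO_5492 and KO_5494 occur in both tissues.

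In a sarcomere, thin filaments of actin, tropomyosin, troponin and nebulin slide past thick filaments of myosin and its binding proteins. The Z-disc anchors the thin filaments through alpha-actinin, titin spans from Z-disc to M-band, and desmin links the Z-discs of neighbouring myofibrils to each other and to the membrane. Fast and slow fibres use different isoforms of many of these proteins, and white vastus lateralis is made mainly of fast fibres. Brown adipocytes are not known to build sarcomeres, but they share a developmental lineage with skeletal muscle, and several members (desmin, Tpm1, Tpm2, filamin C) are also made by smooth muscle or other cells of a tissue.

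Many sarcomere promoters are read with the CArG box (bound by serum response factor), the MEF2 site, the E-box CANNTG (bound by MyoD-type factors) and the MCAT motif CATTCC (bound by TEAD factors). RefSeq promoters of build GRCm38.p6 were matched by symbol for 25 of the 37 members. The 250 bases before each start were searched on both strands, and no match of one motif was removed for overlapping another. A CArG box was found for 4 of 25 members (16%: Acta1, Actc1, Ldb3 and Myom1) and for 1.62% of all 27025 genes. A MEF2 site was found for 3 of 25 (12%) and for 3.42% of all genes, MCAT for 8 (32%) and 14.4%, and an E-box for 20 (80%) and 69.3%. These are matches of letters, not measured binding. The last 150 bases before the start are shown for the actins with the highest and with a highly variable muscle level, Acta1 (chr8:123894776-123894925, minus strand) and Actc1 (chr2:114052876-114053025, minus strand), and for the members that varied most between muscles, Csrp3 (chr7:48848052-48848201, minus strand, 1 of 2 listed promoters) and Ankrd2 (chr19:42035877-42036026, plus strand). Each is written 5′ to 3′ on the gene's strand, with matches to any of the motifs in capitals.
Acta1: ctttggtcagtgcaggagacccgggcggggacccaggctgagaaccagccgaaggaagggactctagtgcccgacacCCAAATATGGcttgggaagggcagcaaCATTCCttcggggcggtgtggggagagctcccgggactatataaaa
Actc1: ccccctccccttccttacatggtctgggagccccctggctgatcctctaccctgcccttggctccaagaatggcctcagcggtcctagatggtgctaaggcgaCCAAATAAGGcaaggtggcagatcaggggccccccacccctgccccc
Csrp3: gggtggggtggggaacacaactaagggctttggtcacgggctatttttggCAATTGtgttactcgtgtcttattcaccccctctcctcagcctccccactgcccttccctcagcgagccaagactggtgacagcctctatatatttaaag
Ankrd2: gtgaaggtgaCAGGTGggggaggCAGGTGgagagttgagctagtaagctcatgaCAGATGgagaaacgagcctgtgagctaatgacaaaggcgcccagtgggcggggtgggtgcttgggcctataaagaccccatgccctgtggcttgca
Both actins held a CArG box in this window, from base -73 in Acta1 and from base -47 in Actc1, counted back from the start, whereas Csrp3 held 1 E-box and Ankrd2 held 3.

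Total counts ran from 20219479 to 41773148 per BAT library and from 30479508 to 40328627 per WV library. Irf4 stood at 20.6 to 56.0 CPM (counts scaled to the library total) in floxed BAT and at 6.50 to 8.91 in BATI4KO BAT, so the groups did not overlap. Ucp1, the uncoupling protein that marks brown adipocytes, stood at 1442 to 6571 CPM in BAT and at 0.389 CPM or less in WV. RNA of skeletal muscle genes was found in every BAT library, taken as the summed level of 32 reference muscle genes outside the members. This sum ran from 241 to 729 CPM in floxed BAT and from 421 to 7894 CPM in BATI4KO BAT. Library 3 was the highest BATI4KO library, and the next stood at 1749. In WV the same sum was 114715 to 181904 CPM. In WV, the libraries FX_5497, FX_5503 and FX_5514 also stood apart in Rmrp, an RNA polymerase III transcript, at 112 to 129 CPM against 10.4 to 29.2 in the other 7. In BAT, Rmrp separated by title style, at 299 to 1245 CPM with short numbers and 11.7 to 33.1 CPM with long tags.

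In WV, the members took 21.3% to 31.8% of all counts of a library. Per length of model (RPKM, the CPM per kilobase), skeletal alpha-actin Acta1 led at 20889 ± 2217 RPKM (SD, n = 10). The fast troponins followed, Tnni2 at 7988 ± 1671, Tnnt3 at 7831 ± 1346 and Tnnc2 at 6532 ± 1145 RPKM, together with the fast myosin light chains Myl1 at 7397 ± 1678 and Mylpf at 4701 ± 1278. Among these 5, neighbours in the order differed by less than their SD, except Mylpf, which lay more than 1 SD below Tnnc2. The lowest levels were those of Csrp3 at 20.1 ± 19.4, Xirp1 at 18.7 ± 9.90 and Capn3, a calpain protease bound to titin, at 12.5 ± 1.78 RPKM.

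Thin filament members ran from 42.2 RPKM (Tmod1, which caps the pointed end of actin) to Acta1. Tpm1 and Tpm2, the tropomyosins that lie along actin, stood at 2604 ± 637 and 1882 ± 243 RPKM, and nebulin (Neb), the ruler of thin filament length, at 931 ± 250. Cardiac alpha-actin Actc1 reached 338 ± 237 RPKM. Its coding sequence matches that of Acta1 at 86.3% of 1131 aligned bases, with a longest identical run of 29 bases (GENCODE M21), so reads from shared stretches could be split between the pair or lost. In the thick filament, titin (Ttn) stood at 1220 ± 317 RPKM and at 87178 to 188274 CPM, the most counts of any member because its model is 107966 bases long. The fast and slow myosin-binding proteins C, Mybpc2 and Mybpc1, stood at 1492 ± 428 and 400 ± 177 RPKM.

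At the Z-disc, alpha-actinin 3 (Actn3), the fast-fibre isoform, stood at 2599 ± 652 RPKM and alpha-actinin 2 (Actn2), made in all fibres, at 165 ± 105. The longest identical run of this pair is 51 bases, at 75.2% identity. Telethonin (Tcap), which caps titin, reached 2439 ± 623, and the calcineurin-binding Myoz1 reached 1084 ± 208 RPKM. Desmin (Des) stood at 922 ± 127, the muscle AMP deaminase Ampd1 at 303 ± 74.5, the skeletal myosin light chain kinase Mylk2 at 220 ± 51.2, filamin C (Flnc) at 102 ± 34.2 and the LIM-domain protein Pdlim3 at 73.9 ± 21.8 RPKM.

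**Figure D1:**
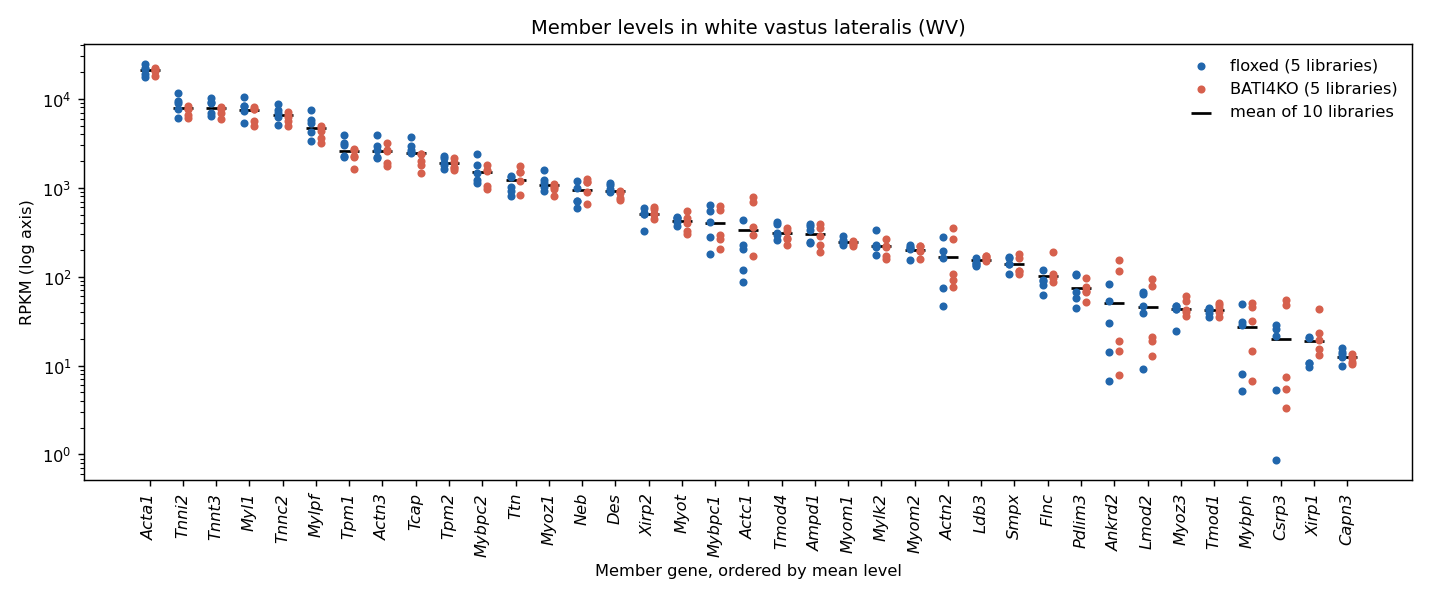
RPKM of each member (log axis) in 5 floxed and 5 BATI4KO WV libraries, as points, with the mean of 10 libraries as a bar. Acta1 leads at 20889 RPKM, Capn3 is lowest at 12.5, and Csrp3, Ankrd2, Lmod2, Mybph, Actc1 and Actn2 scatter widely in both genotypes.

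The members differed sharply in how even they were between muscles. The M-band protein Myom1 and the Z-disc protein Ldb3 were the most even, with highest over lowest levels of 1.27 and 1.29. Csrp3 (muscle LIM protein) spanned 64.3-fold, Ankrd2 (a stretch-responsive ankyrin protein of titin) 23.2-fold, Lmod2 (leiomodin, which nucleates actin) 10.4-fold, Mybph (a short relative of the myosin-binding proteins C) 9.89-fold, Actc1 9.09-fold and Actn2 7.67-fold. Csrp3 stood at 5.15, 20.7, 27.6, 0.832 and 24.9 CPM in floxed WV (FX_5413, FX_5415, FX_5497, FX_5503, FX_5514, the order kept below) and at 53.5, 5.33, 7.16, 47.2 and 3.26 CPM in BATI4KO WV (KO_5492 to KO_5496 in order). High and low libraries occurred in both genotypes, and the groups overlapped.

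A slow-fibre score was set beside this spread. It is the mean log2 CPM of 10 slow-fibre genes that are not members (Myh7, Tnnt1, Tnni1 and others), and it ran from 0.49 in FX_5503 to 5.69 in FX_5514, 7.29 in KO_5492 and 7.35 in KO_5495. In a fit with genotype and score together, 5 members passed with a positive slope (edgeR quasi-likelihood test, Benjamini-Hochberg adjusted p under 0.05), where 2.16% of all models did so, and 3 passed with a negative slope, where 0.502% did. The positive members were Ankrd2 (edgeR slope 0.62 ± 0.057 SE log2 units per score unit, adjusted p = 0.000193), Csrp3 (0.60 ± 0.11), Lmod2 (0.45 ± 0.054), Actn2 (0.40 ± 0.061) and Mybpc1 (0.27 ± 0.054). The negative members were Mybph (-0.43 ± 0.079), Ampd1 (-0.13 ± 0.029) and Pdlim3 (-0.12 ± 0.028). The remaining members gave no call, among them Acta1 (-0.04 ± 0.046), Ttn (0.01 ± 0.089) and Des (0.02 ± 0.038). Reading this slope was chosen after the values were seen.

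Ankrd2 was lowest in FX_5503 (7.36 CPM) and highest in KO_5492 and KO_5495 (171 and 128 CPM), with 92.0 CPM in FX_5514. Mybph stood at 90.5 CPM in FX_5503 and 12.2 CPM in KO_5495. These calls rest on few libraries. Without KO_5495, 2 members passed (Ankrd2 and Lmod2). Without FX_5503, 4 passed, and without FX_5514, KO_5494 or KO_5496, 5 passed each. Without KO_5492 and KO_5495 together, the pair farthest from the median score, no member passed at adjusted p, while the slopes of Ankrd2 (0.63 ± 0.11) and Csrp3 (0.58 ± 0.22) had larger errors. With 1 library left out, slopes ran from 0.60 to 0.68 for Ankrd2, 0.53 to 0.69 for Csrp3 and -0.49 to -0.38 for Mybph. The share of all models passing was not taken for these reduced fits. Fewer calls of members can thus not be told from fewer calls of all models.

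**Figure D2:**
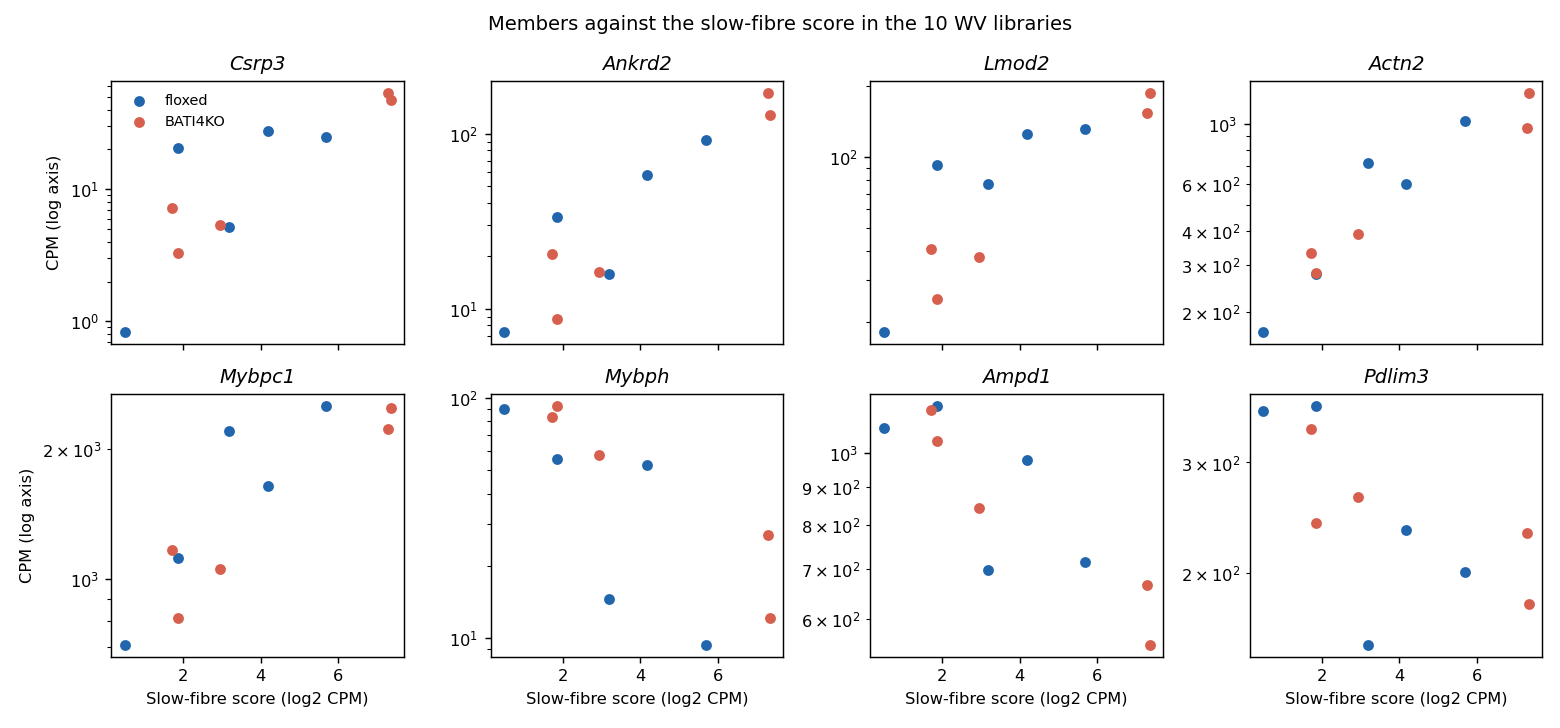
CPM (log axis) of the 8 members with a called slope against the slow-fibre score (log2 CPM) in 5 floxed and 5 BATI4KO WV libraries, 1 point per library. Csrp3, Ankrd2, Lmod2, Actn2 and Mybpc1 climb with the score, and Mybph, Ampd1 and Pdlim3 decline.

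Between genotypes in WV, no member passed the test, which asked whether loss of Irf4 in brown fat goes with a change in these muscle genes (edgeR, smallest adjusted p = 0.497, where 0.00688% of all models passed). Of the 37, 20 had a higher and 17 a lower fitted value in BATI4KO, with a median log2 difference of 0.01 beside -0.01 over all 14529 models tested. An unadjusted p under 0.05 was reached by 2 members, both higher in BATI4KO, where 8.91% of all models reached it in either direction. DESeq2 also called no member, where it called 0.668% of models. limma voom called none, where 1 of all models passed upward and 0 downward.

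The members with the smallest p upward were Actc1, Xirp1 and Ldb3. Actc1 stood at 121, 167, 288, 600 and 314 CPM in floxed WV and at 411, 502, 1100, 240 and 953 CPM in BATI4KO WV, a log2 difference of 1.21 ± 0.47 (SE). The 2 highest libraries were BATI4KO (KO_5494 and KO_5496), and the other 3 lay among the floxed ones. Xirp1, a Z-disc adaptor linked to muscle damage, gave 0.81 ± 0.33, and its highest library, KO_5495 at 253 CPM, was also the one with the highest slow-fibre score. Ldb3 gave 0.30 ± 0.16. None of these passed after adjustment. The 10 slow-fibre genes themselves had a higher fitted value in BATI4KO WV in 10 of 10, at a median of 1.84, with no call. These fitted values lean on KO_5492 and KO_5495, with scores of 7.29 and 7.35. KO_5493, KO_5494 and KO_5496 had scores of 2.94, 1.71 and 1.86. The summed CPM of these genes had a lower median in BATI4KO WV (118) than in floxed WV (160). With the slow-fibre score as a term, the difference was 1.29 ± 0.38 for Actc1 and 0.53 ± 0.25 for Xirp1, and no member passed.

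Downward, the smallest p were those of Tcap (-0.41 ± 0.20), Mylpf (-0.22 ± 0.23) and Tpm1 (-0.22 ± 0.23), and none passed. Tcap stood at 2349, 2498, 3522, 2414 and 2804 CPM in floxed WV and at 2260, 1399, 1690, 2269 and 1915 CPM in BATI4KO WV. It was the only member whose WV groups did not overlap, a pattern seen in 0.551% of all models. Without the 3 floxed libraries high in Rmrp, which left 2 floxed and 5 BATI4KO libraries, 32 of 37 members had a higher fitted value in BATI4KO, with a median of 0.19. No member was called, where 0 of all models passed. The median over all models was not taken for this fit, so a shift of the members cannot be told from a shift of all models. All 3 libraries high in Rmrp are floxed, so Rmrp and genotype are partly confounded in WV. The part of Rmrp in these differences was not tested.

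In BAT, the members took 0.0309% to 0.139% of counts in floxed libraries and 0.0915% to 2.38% in BATI4KO libraries (at most 0.328% without BATI4KO library 3). To set the tissues on 1 scale, the CPM of each member in a BAT library was divided by its mean CPM over the 10 WV libraries. The median share over the 37 members was 0.250%, 0.368%, 0.587%, 0.607% and 0.0737% in FX_1, FX_2, FX_3, FX_5497 and FX_5503, or 0.377% ± 0.226 (SD, n = 5). In BATI4KO libraries it ran from 0.330% in library 2 through a median of 1.08% to 7.26% in library 3, a mean of 1.98% ± 2.61 (n = 6), and 0.923% ± 0.389 without library 3 (n = 5). Every BATI4KO library except library 2 lay above all floxed ones. In bulk tissue, fewer muscle fibres and less RNA of these genes per cell cannot be told apart. With TMM factors over all 21 libraries in place of library totals, the means were 0.205% in floxed and 0.993% in BATI4KO libraries.

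The reference muscle genes moved with the members in each library. Their median share was 0.234%, 0.308%, 0.453%, 0.411% and 0.101% in the floxed libraries, in the same order, and 0.693%, 0.307%, 5.66%, 1.1%, 1.1% and 0.809% in KO_1, KO_2, KO_3, KO_5414, KO_5492 and KO_5494. Library 3 thus led both lists. Smooth muscle markers summed to 105 to 156 CPM in floxed and 105 to 145 CPM in BATI4KO BAT, and each of the 8 had counts in both groups. Of these 8, 1 had a higher and 7 a lower fitted value in BATI4KO, at a median log2 difference of -0.25, with no call. Cardiac markers summed to at most 1.48 CPM in any BAT library. Satellite cell and myoblast markers summed to 1.92 to 4.58 CPM in floxed BAT and 3.64 to 9.25 in BATI4KO BAT (at most 5.31 without library 3). Brown adipocyte markers summed to 3898 to 9623 CPM in floxed and 3125 to 7280 CPM in BATI4KO BAT, and 7 of 7 had a lower fitted value in BATI4KO, at a median log2 difference of -0.37, with no call. Their part in the members' differences was not tested.

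**Figure D3:**
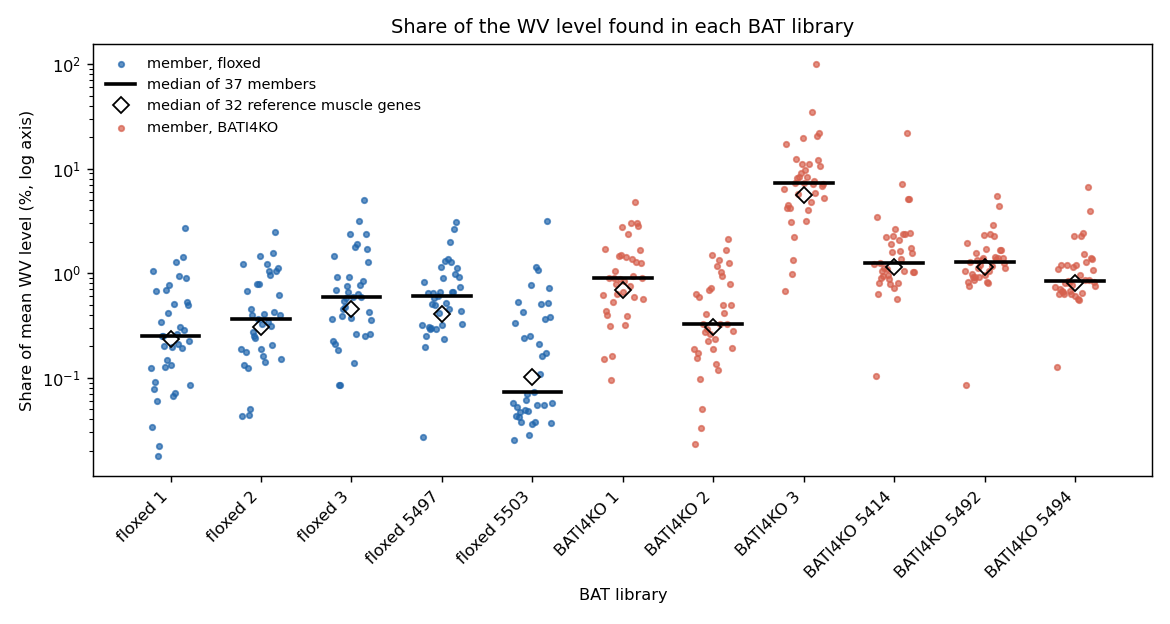
Share of the mean WV level (percent, log axis) of each of the 37 members in each of the 11 BAT libraries, with the members' median as a bar and the median of 32 reference muscle genes as a diamond. The bar and diamond move together from 0.0737% and 0.101% in FX_5503 to 7.26% and 5.66% in BATI4KO library 3.

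Acta1 shows the level behind these shares. It stood at 37.3, 56.6, 110, 95.5 and 17.1 CPM in floxed BAT (FX_1, FX_2, FX_3, FX_5497, FX_5503) and at 56.0 (library 2) to 1895 CPM (library 3), median 266, in BATI4KO BAT. FX_5503 was the lowest of all 11 for Acta1, and 5 of 6 BATI4KO libraries lay above every floxed one. Titin stood at 329, 359, 714, 771 and 65.3 CPM in floxed BAT and at 534 to 16230, median 1419, in BATI4KO BAT, with library 2 alone among the floxed values.

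Shares were not equal across members. Taken relative to the median share of the reference muscle genes in the same library, 3 members were highest: Csrp3 (median ratio 6.40 over 11 libraries), Des (5.21) and Flnc (3.77), each above 1 in 11 of 11 libraries. Ldb3, Myom1, Pdlim3, Actn2, Tmod1 and Xirp1 were also above 1 in all 11. The 3 lowest were Actc1 (0.14), Tnni2 (0.19) and Tnnc2 (0.24), each below 1 in all 11, as were Tnnt3, Mybpc2, Actn3 and Ampd1. The low place of Tnni2 and Tnnc2 came from the short-number libraries, where their median ratios were 0.14 and 0.17. In the long-tag libraries these were 0.80 and 0.75, above Actn3 (0.55) and Mybpc2 (0.57), whereas Actc1 was low in both (0.14 and 0.091). Csrp3 and Des were the 2 highest in both kinds of library, and Flnc was not among the 3 highest in either.

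Csrp3 had a low and uneven WV level, as given above, so its share has a small denominator. In BAT it stood at 0.283, 0.303, 0.972, 0.515 and 0.0718 CPM in floxed libraries, from 3 to 21 counts, and at 0.327 to 19.8 CPM, median 1.19, in BATI4KO libraries. Its share reached 101% in KO_3 and 21.96% in KO_5414. Library KO_5414 was also the one richest in slow-fibre RNA, with a median share of 62.7% over the 10 slow-fibre genes against 0.823% to 8.97% in the other 10 libraries, and with Myh7, the slow myosin heavy chain, at 109 CPM. Lmod2 and Ankrd2, which like Csrp3 climbed with the slow-fibre score in WV, had their highest shares in library 3 (34.6% and 20.4%) and their next highest in KO_5414 (7.19% and 5.10%). The part of slow-fibre content in these shares was not tested.

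Desmin was present at 42.3 CPM or more in every BAT library. It stood at 53.6, 49.3, 46.8, 61.0 and 62.9 CPM in floxed BAT and at 42.3 to 241, median 82.0, in BATI4KO BAT. FX_5503, lowest of all for Acta1 and titin, was the highest floxed library for desmin. In the 11 BAT libraries, slopes on the reference muscle score were fitted within genotype and title style. Desmin changed by 0.52 ± 0.095 log2 units per log2 unit of the score, Tpm1 by 0.60 ± 0.080 and Myl1 by 0.63 ± 0.076. Acta1 changed by 1.33 ± 0.055 and Ttn by 1.38 ± 0.11. These slopes are descriptions, since score and members come from the same RNA. Tpm1 stood at 35.1 to 51.7 CPM and Myl1 at 49.4 to 84.5 CPM in floxed BAT, narrow ranges beside the 17.1 to 110 of Acta1.

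At the low end, Actc1 stood at 0.157, 0.202, 1.06, 0.129 and 0.120 CPM in floxed BAT and at 0.109 to 3.17, median 0.54, in BATI4KO BAT, from 3 to 64 counts, so each value carries large counting error. Relative to Ttn, Tnni2 and Tnnc2 separated by title style. The share of Tnni2 divided by that of Ttn was 0.071 to 0.162 in the 6 libraries with short numbers and 0.495 to 0.957 in the 5 with long tags, without overlap. For Tnnc2 the ranges were 0.089 to 0.183 and 0.508 to 0.865. Their models are 667 and 692 bases long, the shortest of the members, and Ttn is the longest. Over the 37 members, Spearman's correlation of share with model length was 0.21 to 0.41 in short-number libraries and 0.009 to 0.30 in long-tag libraries. This is a description over genes that share a library, and the ratio was looked at after its values were seen. Title style is a term of the BAT fits.

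**Figure D4:**
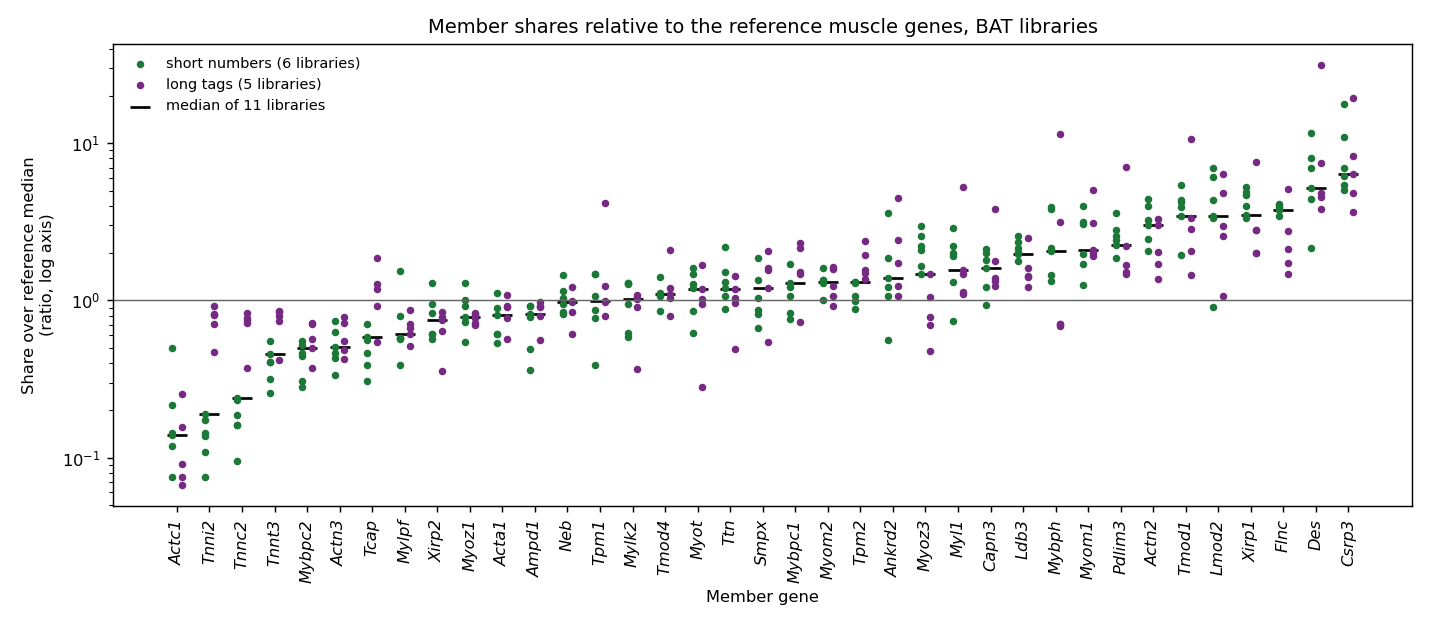
Share of each member divided by the median share of the reference muscle genes in the same BAT library (ratio, log axis), for 6 libraries with short numbers and 5 with long tags, with the median of 11 as a bar. Csrp3 and Des sit highest at 6.40 and 5.21, Actc1 lowest at 0.14, and Tnni2 and Tnnc2 split by title style.

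For the genotype difference in BAT, all 37 members had a higher fitted value in BATI4KO, with a median log2 difference of 2.34 beside -0.01 over all 16051 models tested, and none passed the test (edgeR, adjusted p from 0.154 to 0.669, where 0.0187% of all models passed upward). An unadjusted p under 0.05 was reached by 34 of 37, where 7.5% of all models reached it upward. DESeq2 with the same design called 7 members, where it called 1.24% of models upward: Acta1, Actn3, Tnnt3, Tnnc2, Tpm2, Mybpc2 and Ampd1 (adjusted p from 0.0146 to 0.0482). limma voom called none, where 3 of all models passed upward. In no member did the genotypes separate fully, which 1.84% of all models did upward, but in 19 members 5 of 6 BATI4KO libraries lay above every floxed library, where 5.72% of all models had at least 5 of 6 there.

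These values lean on BATI4KO library 3. Without it, 36 members were tested (Capn3 did not pass the expression filter), 35 had a higher fitted value, and the median was 1.17. An unadjusted p under 0.05 was then reached by 21, where 6.85% of all models reached it, and no member passed by edgeR, nor by DESeq2, where 0.973% of models did. Within title styles, the median was 2.76 in the 6 short-number libraries (35 tested, no call) and 1.81 in the 5 long-tag libraries (37 tested, smallest edgeR adjusted p = 0.0573, no call). With the reference muscle score as a further term, 11 of 37 had a higher fitted value and the median was -0.07. In that fit the highest values were those of Ampd1 (0.50 ± 0.21) and Actn3 (0.46 ± 0.14). No member passed, where 0 of all models passed upward and 1 downward. Score and members come from the RNA of the same libraries, so this fit is a description.

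The smallest p were those of Actn3, Ampd1 and Mybpc2, and none of these passed by edgeR. Actn3 stood at 5.84, 9.85, 15.6, 14.8 and 3.18 CPM in floxed BAT and at 11.6 (library 2) to 311 (library 3), median 46.9, in BATI4KO BAT. Every BATI4KO library except library 2 lay above all floxed ones, and the log2 difference was 2.93 ± 0.73, or 1.69 ± 0.48 without library 3. Ampd1 gave 2.79 ± 0.73 and Mybpc2 2.70 ± 0.72. Ampd1 ran from 0.503 to 3.15 CPM in floxed and from 2.51 to 46.2 CPM in BATI4KO BAT.

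By role, the medians of the log2 differences were 2.48 in the thin filament (from 1.07 for Tpm1 to 2.81 for Acta1), 2.22 in the thick filament and M-band (0.67 for Mybph to 2.70 for Mybpc2), 2.40 at the Z-disc (1.48 for Pdlim3 to 3.35 for Csrp3) and 2.02 in the 4 others (0.74 for Des to 2.79 for Ampd1). Without library 3 they were 1.18, 1.02, 1.20 and 1.29 (3 members). The fast troponins gave 2.69 ± 0.77 (Tnnt3), 2.53 ± 0.76 (Tnni2) and 2.69 ± 0.76 (Tnnc2), and the fast myosin light chains gave 2.22 ± 0.78 (Mylpf) and 1.06 ± 0.39 (Myl1). Myoz1 gave 2.40 ± 0.72, and Tcap, Ttn and Neb, made in all fibres, gave 2.66 ± 0.81, 2.68 ± 0.86 and 2.48 ± 0.78. As levels, Tnnt3 ran from 3.71 to 26.8 CPM in floxed and 8.54 to 273 (median 69.4) in BATI4KO BAT. Tcap ran from 1.27 to 12.1 CPM in floxed and 2.76 to 93.2 (median 23.1) in BATI4KO BAT. Neb ran from 13.0 to 105 CPM in floxed and 61.4 to 1728 (median 185) in BATI4KO BAT. Library 3 was the highest for each of these 3. The members that climbed with the slow-fibre score in WV gave 3.23 ± 1.01 (Ankrd2), 2.55 ± 0.93 (Lmod2), 2.54 ± 0.85 (Mybpc1) and 2.03 ± 0.68 (Actn2).

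Members listed as also made outside skeletal muscle gave the following log2 differences: Des 0.74 ± 0.35, Tpm1 1.07 ± 0.37, Pdlim3 1.48 ± 0.56, Actc1 1.51 ± 0.72, Flnc 1.94 ± 0.64 and Tpm2 2.34 ± 0.66. Outside this list, Myl1 (1.06 ± 0.39) and Tmod1 (1.16 ± 0.46) gave values near that of Tpm1. Whether the listed members differ from the rest, or come from other cells in BAT, was not tested. Flnc, which crosslinks actin at the Z-disc, ran from 5.003 to 16.7 CPM in floxed and 12.2 to 216 (median 19.95) in BATI4KO BAT. Tpm2 ran from 9.81 to 26.3 CPM in floxed and 11.1 to 299.8 (median 56.9) in BATI4KO BAT. Pdlim3 ran from 1.35 to 3.29 CPM in floxed and 2.03 to 27.3 (median 4.32) in BATI4KO BAT. Xirp1 gave 1.76 ± 0.59, Capn3 1.78 ± 0.58 and Mylk2 2.64 ± 0.77. Mybph was the member with the smallest value. It stood at 0.251, 0.202, 0.879, 0.644 and 0.575 CPM in floxed BAT and at 0.277 to 4.10, median 0.491, in BATI4KO BAT, and library 3 alone lay above the floxed range. Its log2 difference was 0.67 ± 0.67, turned to -0.21 ± 0.43 without library 3, and was 1.90 in short-number and -0.87 in long-tag libraries.

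**Figure D5:**
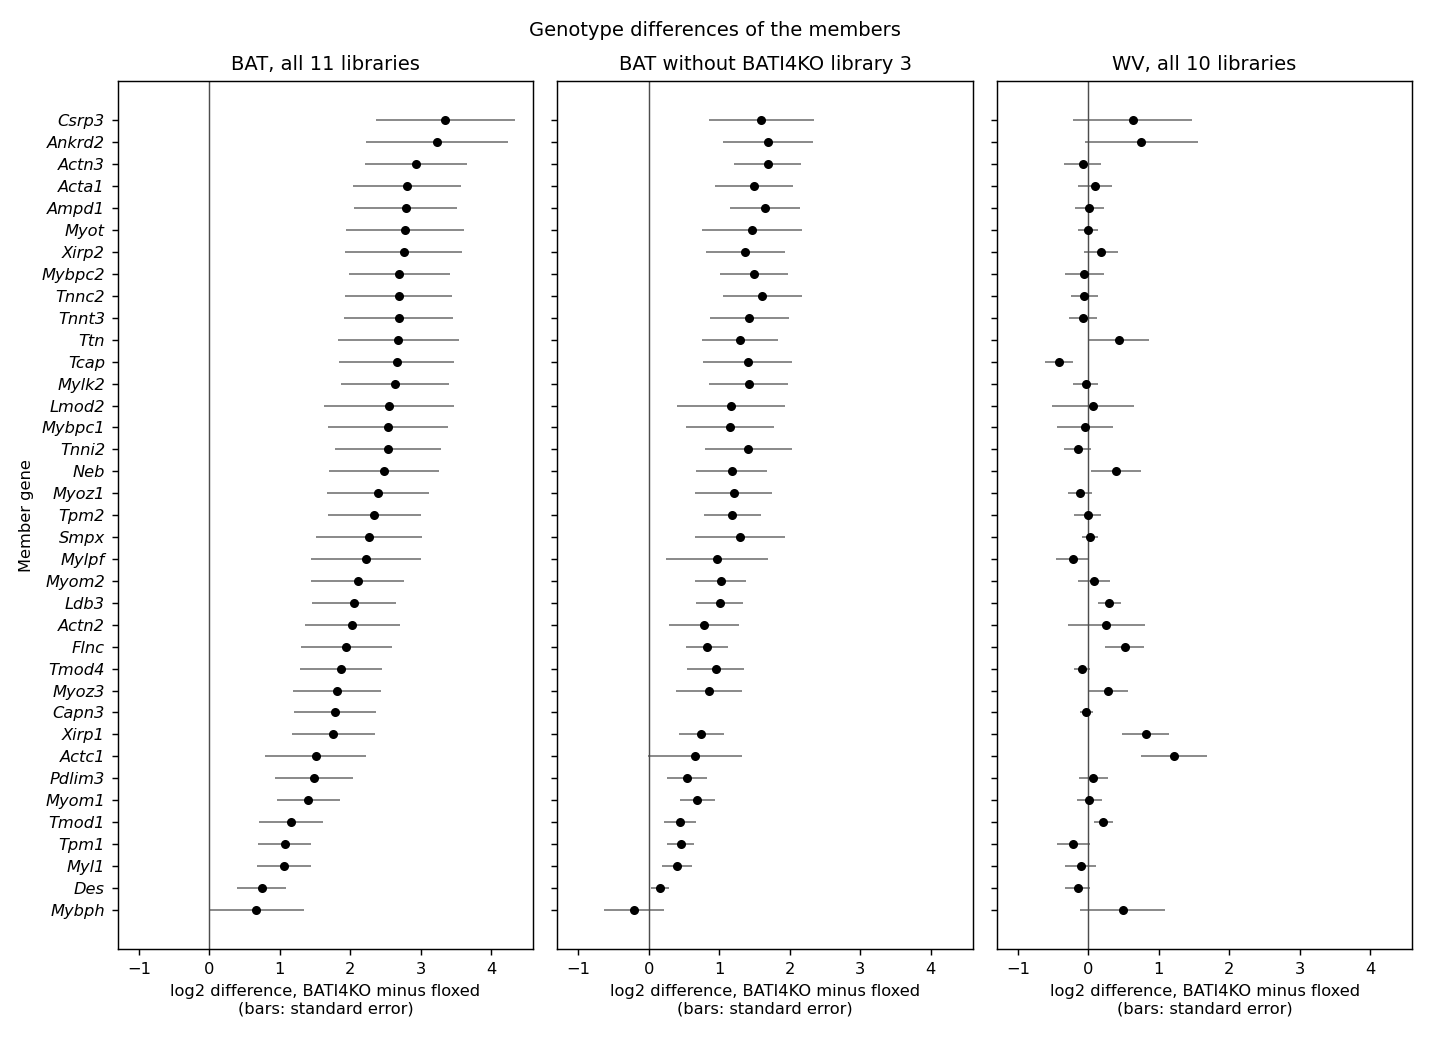
Log2 difference, BATI4KO minus floxed, of each member with its standard error in BAT (11 libraries), in BAT without BATI4KO library 3 and in WV (10 libraries). The BAT values all lie above 0 with a median of 2.34, the median is 1.17 without library 3, and WV values scatter around 0.01.

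The difference between the tissues was tested as an interaction over all 21 libraries. All 37 members had a larger fitted BATI4KO minus floxed difference in BAT than in WV, with a median of 2.26, and none passed (edgeR, smallest adjusted p = 0.268, where 0.00601% of all models passed upward). An unadjusted p under 0.05 was reached by 27, where 5.58% of all models reached it upward. limma voom also called no member. Without BATI4KO library 3 the median was 1.004, and 13 members reached an unadjusted p under 0.05, where 4.75% of models did. The smallest p were those of Actn3 (2.99 ± 0.82), Ampd1 (2.76 ± 0.78) and Tcap (3.06 ± 0.89).

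Of 53 other sarcomere and Z-disc genes, listed by structure, none passed in either tissue. The list shares Myl2, Myl3, Tnnt1, Tnni1, Tnnc1, Tpm3, Myoz2 and Casq2 with the slow-fibre genes, so the lists are not independent. It also holds genes made in many cell types. In BAT 50 were tested, 34 with a higher and 16 with a lower fitted value in BATI4KO, at a median of 0.32. Among them, Mypn (myopalladin, a Z-disc and I-band protein) gave a log2 difference of 2.87 ± 0.75 and Actb (beta-actin, found in all cells) -0.06 ± 0.12. In WV 52 were tested, 41 with a higher and 11 with a lower value, at a median of 0.20. The 32 reference muscle genes gave 31 of 31 tested with a higher value in BAT, at a median of 2.28, with no call. Scaling by library totals in place of TMM moved the median of all models to 0.13 in BAT and to -0.12 in WV, where 14 in place of 20 members then had a higher fitted value.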

How the data were processed

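The authors deposited raw read counts per gene model, 1 table per tissue, without normalisation. Per the labels' protocols, total RNA was rRNA-depleted and made into Nextera XT libraries, and no strand setting is given, so overlapping genes cannot be told apart. The submitters' processing notes name TopHat2 2.0.14, featureCounts 1.4.6 and mm9.

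Levels are CPM of the library total, and RPKM is CPM per kilobase of model. Shares divide a BAT library's CPM by the mean CPM of 10 WV libraries. Tests used edgeR 4.0.16 (R 4.3.3; TMM, filterByExpr, quasi-likelihood), with title style as a term in BAT, and p-values were adjusted by Benjamini-Hochberg over all models tested, with a threshold of 0.05. DESeq2 1.42.0, limma 3.58.1 voom, other scalings and filters, and left-out libraries were alternatives (those without library 3, with DESeq2 or between tissues, the low-Rmrp libraries, and shares by title style were chosen after seeing the data). The fits were tested on simulated data.

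Members and lists were chosen with earlier results of these data known. Named were members fixed by role, those passing a test, the 3 smallest p in each direction, and the 3 highest and lowest relative shares. No pair of replicates agreed within sampling noise (smallest chi-square per gene 32.9). Title numbers were taken as sharing only a number.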

Additional observations from a re-analysis of the deposited data

Results flagged for a closer look

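Within groups of 5 or 6 libraries, a library was singled out where its gap to the nearest other exceeded Dixon's 95% limit, which chance alone passes in about 1 in 20 groups. Over 148 pairs of member and group, KO_3 of BAT was singled out in 33 of 37 members, always as the highest BATI4KO library. The rule was applied to the CPM of members only, so no share over all models stands beside this count. Members measured in 1 library are not independent, so the rate of 1 in 20 is no measure for the count as a whole.

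Of the members named by role, 23 were among these. Thin filament levels in KO_3 were 1895 CPM for Acta1, 3.17 for Actc1, 273 for Tnnt3, 299.8 for Tpm2, 1728 for Neb and 30.7 for Lmod2. In the thick filament they were 16230 CPM for Ttn, 159 for Mylpf, 155 for Mybpc1, 169 for Mybpc2, 4.10 for Mybph and 46.4 for Mylk2. At the Z-disc they were 103 CPM for Actn2, 311 for Actn3, 80.3 for Myoz1, 21.6 for Xirp1, 19.8 for Csrp3, 11.2 for Ankrd2, 216 for Flnc and 27.3 for Pdlim3. Desmin stood at 241 CPM, Capn3 at 3.02 and Ampd1 at 46.2. The median share of the WV level was 7.26% there, and the share of the summed counts was 8.99%.

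In floxed BAT, Actc1 was highest in FX_3, at 1.06 CPM. In BATI4KO WV, filamin C (Flnc) was highest in KO_5495, at 1804 CPM, the library with the highest slow-fibre score.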

How the results depend on the processing

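In BAT, DESeq2 was the alternative under which members passed, 7 of them. With the reference muscle score as a term the median log2 difference was -0.071, and values turned below 0 by more than 1 SE for Actn2 (-0.55), Mylpf (-0.35), Mybpc1 (-0.33), Des (-0.35), Pdlim3 (-0.36) and Myl1 (-0.26), and Mybph, without a direction before, stood at -0.78, where a difference within 1 SE of 0 is taken as having no direction. Slopes on the slow-fibre score passed for 4 members in the 7 libraries with low Rmrp, for 0 without the 2 libraries farthest from the median score (fewer libraries), and for 2 to 8 when 1 library was left out. No share over all models was taken beside these counts. Leaving out 1 library moved the BAT median between 1.17 and 2.82. The causes were not tested.

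With the title number as a replicate block, 0 members passed in BAT and the median was 1.86. Deviations of same-numbered short libraries correlated at 0.133, -0.12 and 0.07, so the numbers were not taken as pairs. With shared long tags as a random replicate block, 0 members passed in the difference between tissues. Counts in floxed BAT were 3 to 24 for Actc1, Csrp3 and Mybph, 3 to 17 for Ankrd2 and 4 to 10 for Capn3. The lowest floxed counts of Lmod2, Myoz3 and Smpx were also 3 or 4. Such counts limit the precision of the values of these members.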
